A study of Mus musculus with 15 samples.

Results

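The 10 genes described here encode the signaling chains of the T cell receptor, the T cell coreceptors and the kinases that act with them. They were taken by gene symbol, namely *Cd3e*, *Cd3d*, *Cd3g*, *Cd247*, *Cd8a*, *Cd8b1*, *Cd4*, *Cd2*, *Lck* and *Zap70*, and all 10 were found among the 18279 genes of the table. RNA was sequenced from 15 whole tumors grown under the skin of female BALB/c mice that were 4 to 6 weeks old when purchased. Tumors 1 to 5 were control tumors from Renca cells, a murine renal carcinoma line. Tumors 6 to 10 came from *Pbrm1* knockout clone #4 and tumors 11 to 15 from *Pbrm1* knockout clone #18, both made from Renca cells with a *Cas9* plasmid and a repair template and each grown from 1 sorted cell. The sample records name the control cells as parental Renca cells, whereas the methods name control knockout cells. *Pbrm1* encodes a subunit of the PBAF chromatin remodeling complex, and the study asked whether its loss in the cancer cells went with a less immunogenic tumor. The records mention treatment with a PD-1 antibody and do not say whether these tumors received it. Each group came from 1 line or clone, so genotype and line cannot be told apart, and the p values cover only the spread between tumors of these lines.

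*Pbrm1* itself averaged 9012 normalized counts (SD 956, n = 5) in the control group, and the mean of the 10 knockout tumors was 31.0% of that, with every knockout tumor lower than any control. The tumors held 32924414 to 49099168 reads on genes. Normalized counts are reads per gene divided by a size factor per tumor, and the number of reads behind each value could be recovered from them. The CD3 chain genes were low in these tumors. The summed reads on the 3 CD3 chain genes were 36 to 281 in a control tumor and 11 to 48 in a knockout tumor, so counting error was large for single values. The reads carry no molecular identifiers, and limits drawn from their number cover counting error only.

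The T cell receptor binds a peptide held by an MHC molecule, but its own chains have no signaling tail. The signal is carried by the CD3 epsilon, delta and gamma chains and by the zeta chain, encoded by *Cd247*. The coreceptors CD8 and CD4 bind MHC class I and class II molecules and bring the kinase LCK to the receptor, LCK phosphorylates the tails, and ZAP-70 docks on the phosphorylated tails and passes the signal on. CD2 is an adhesion molecule of T cells and NK cells. In tumors, transcripts of CD3 and CD8 chains are widely read as a measure of infiltrating T cells. Several of the genes are not restricted to T cells, since NK cells also use *Cd247*, *Lck* and *Zap70*, and some dendritic cells carry CD4. In bulk tissue, fewer T cells and less RNA per T cell cannot be told apart.

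The promoters of *Cd3g*, *Cd3d*, *Cd8a* and *Zap70* are shown because these 4 genes were each called lower in knockout tumors (below), and 2 of them are neighbors on 1 chromosome. Within the groups *Zap70* followed the other genes least (below). *Cd3g* and *Cd3d* are transcribed away from each other with 1354 bases between them, and *Cd3g*, *Cd3d* and *Cd3e* lie within 40056 bases of chromosome 9. RefSeq promoters of build GRCm38.p6 matched 7 of the 10 genes, from 250 bases before to 50 bases after the start site, and none was at hand for *Cd8b1*, *Cd4* or *Cd2*. Capitals mark 3 motifs searched on both strands. These are the ETS motif AGGAAG (on the other strand CTTCCT), the RUNX motif TGTGGT (on the other strand ACCACA) and the GATA motif AGATAA (on the other strand TTATCT). No 2 matches overlapped. The windows are chr9:44980382-44980681 on the minus strand for *Cd3g*, chr9:44981536-44981835 on the plus strand for *Cd3d*, chr6:71373177-71373476 on the plus strand for *Cd8a* and chr1:36761548-36761847 on the plus strand for *Zap70*, the window at the start of the annotated gene among 3 for *Zap70*.
Cd3g: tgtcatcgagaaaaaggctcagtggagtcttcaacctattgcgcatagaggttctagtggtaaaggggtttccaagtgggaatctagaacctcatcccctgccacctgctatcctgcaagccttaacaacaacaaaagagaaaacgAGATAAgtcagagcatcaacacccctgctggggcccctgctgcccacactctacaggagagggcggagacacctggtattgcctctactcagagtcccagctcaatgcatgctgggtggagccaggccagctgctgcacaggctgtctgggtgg
Cd3d: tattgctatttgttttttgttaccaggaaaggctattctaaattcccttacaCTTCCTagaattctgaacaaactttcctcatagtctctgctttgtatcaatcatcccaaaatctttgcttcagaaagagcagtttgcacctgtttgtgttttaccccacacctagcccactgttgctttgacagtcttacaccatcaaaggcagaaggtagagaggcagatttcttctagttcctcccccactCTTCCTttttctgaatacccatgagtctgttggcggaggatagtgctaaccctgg
Cd8a: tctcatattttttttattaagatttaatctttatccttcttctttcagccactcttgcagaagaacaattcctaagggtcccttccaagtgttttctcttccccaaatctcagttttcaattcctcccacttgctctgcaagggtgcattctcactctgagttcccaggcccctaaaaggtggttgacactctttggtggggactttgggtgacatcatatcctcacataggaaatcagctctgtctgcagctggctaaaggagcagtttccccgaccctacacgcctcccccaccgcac
Zap70: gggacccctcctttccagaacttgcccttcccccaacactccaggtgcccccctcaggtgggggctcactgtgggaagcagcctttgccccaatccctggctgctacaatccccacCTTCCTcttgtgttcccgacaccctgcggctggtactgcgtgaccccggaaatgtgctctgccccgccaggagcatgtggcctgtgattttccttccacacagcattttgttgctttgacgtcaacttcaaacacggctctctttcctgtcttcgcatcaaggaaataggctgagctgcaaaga

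The window of *Cd3d* held 2 ETS matches, that of *Cd3g* 1 GATA match and that of *Zap70* 1 ETS match, and the window of *Cd8a* held none of the 3 motifs. Of 32851 promoters of the same length, 35.4% held the ETS motif, 16.8% the RUNX motif and 11.2% the GATA motif, so these matches are common letters in mouse promoters. The windows of *Lck* and *Cd247*, whose levels did not pass the test in any comparison, held ETS matches as well, 3 in the window at the *Lck* gene start and 2 in that of *Cd247*. A match describes the letters and does not show a bound factor.

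Knockout tumors had lower transcript levels of the CD3 delta and gamma chains, CD8 alpha and ZAP-70, while the log2 differences of *Lck* (-0.06) and *Cd247* (0.13) were small. *Cd247* averaged 102.7 in control, 119.7 in clone 4 and 95.1 in clone 18 tumors. Its level is uncertain because its exons overlap those of *Pou2f1* (below). Of the 10 genes, 4 passed the test in knockout against control tumors (limma, adjusted p under 0.05 over 18250 genes), all of them lower, where 12.9% of all tested genes were called lower. Over all genes 2356 calls were lower and 1684 higher, a split that quantile normalization turned to 1971 and 2265 without changing the 4 calls. The largest falls were those of *Zap70*, to 13.2% of the control mean, *Cd3g*, to 16.1%, *Cd8a*, to 18.0%, and *Cd3d*, to 18.3%. Without control tumor 1 these values were 12.7%, 25.9%, 27.9% and 27.0%. The median log2 difference of the 10 genes was -1.25, beside -0.02 over all tested genes. An unadjusted p under 0.05 was reached by 7 of the 10 genes, and by 6134 of all 18250 tested genes. The plot of all 10 genes by tumor shows the spread within each group.

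**Figure D1:**
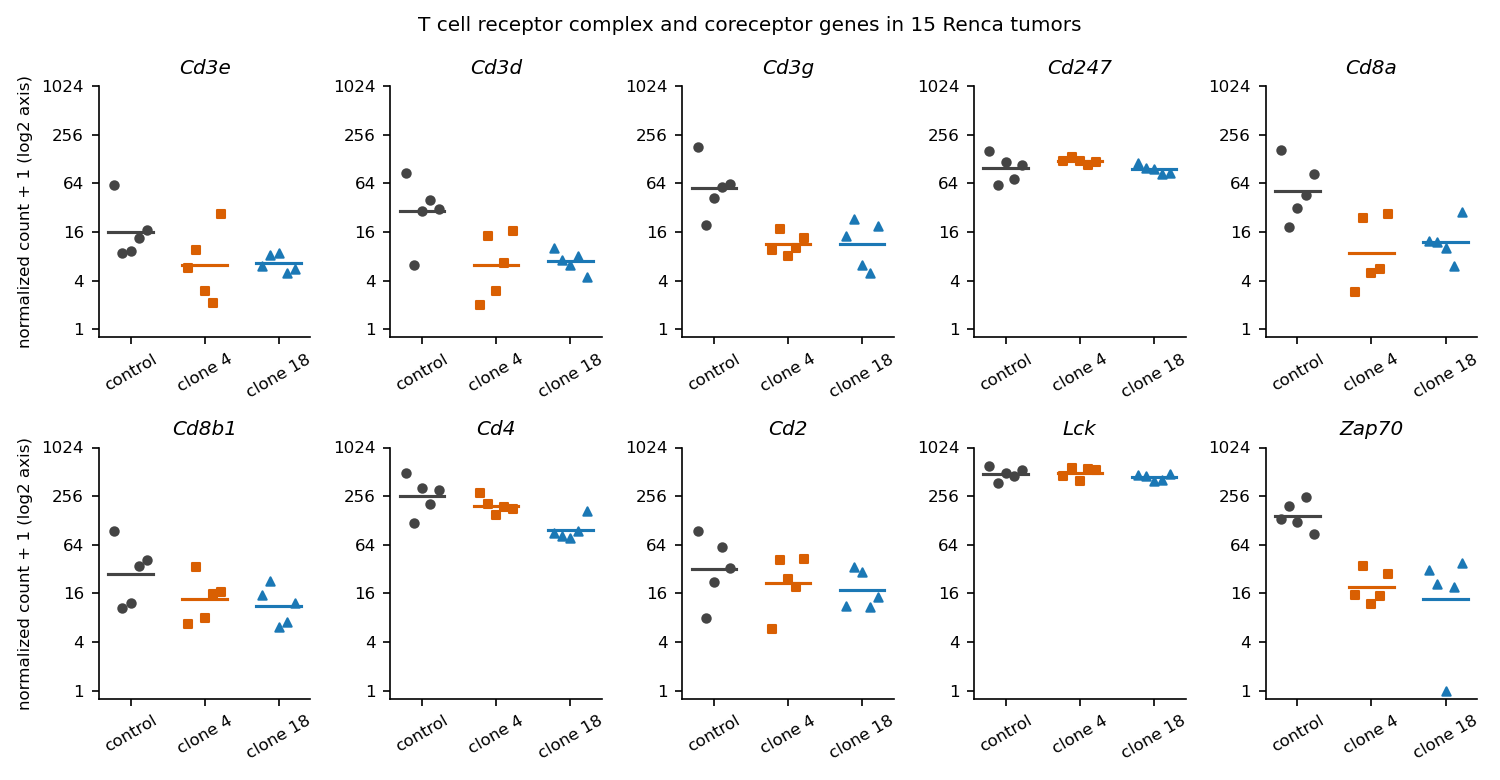
Normalized count + 1 (log2 axis) of each of the 10 genes in 5 control tumors, 5 clone 4 tumors and 5 clone 18 tumors, with a point per tumor and a bar at the mean of the log2 values. For *Zap70* all 10 knockout tumors (0 to 36.9) lie below the control tumors (86.7 to 249.9), whereas *Lck* lies between 368.2 and 608.1 in all 15 tumors.

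*Cd3g* (ENSMUSG00000002033, chromosome 9, 44969572 to 44980431, GRCm38) encodes the CD3 gamma chain. Its normalized count was 181, 18.5, 41.7, 56 and 62.4 in control tumors 1 to 5, 8.7, 16.2, 7, 9.1 and 12.3 in clone 4 and 13.3, 22.1, 5.2, 4 and 17.9 in clone 18. Control tumor 1 stood above the rest, and 9 of the 10 knockout tumors lay under the whole control range, with only tumor 12 of clone 18 above control tumor 2. The log2 difference of knockout from control was -2.30 (standard error 0.45, adjusted p = 0.00130 from limma), a 4.94-fold lower level, and the exact permutation test over the 15 tumors gave p = 0.000666 (two-sided, over all splits into 5 and 10). Each clone showed a fall, of -2.32 in clone 4 (adjusted p = 0.00545) and -2.29 in clone 18 (adjusted p = 0.00420). These 2 values share the 5 control tumors. Without control tumor 1 the knockout tumors averaged 25.9% of the remaining controls.

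*Cd3d* (ENSMUSG00000032094, chromosome 9, 44981786 to 44987339) encodes the CD3 delta chain. Control tumors had 85.9, 5.3, 27.8, 39.2 and 29.6, clone 4 tumors 1, 13.4, 2, 5.7 and 15.6, and clone 18 tumors 9.2, 6.2, 5.2, 7 and 3.4. All 10 knockout tumors were below 4 of the 5 control tumors, but control tumor 2 was in their range, and 4 of the 10 were below it. The log2 difference was -2.12 (standard error 0.55, adjusted p = 0.0102 from limma, exact permutation p = 0.00333). It was -2.20 in clone 4 (adjusted p = 0.0269) and -2.05 in clone 18 (adjusted p = 0.0290). The calls within a clone rested on few tumors: without control tumor 1 the adjusted p was 0.0748 in clone 4 and 0.0821 in clone 18, and the calls were also lost without control tumor 4 or 5 or tumor 6 or 8 in clone 4, and without control tumor 3, 4 or 5 or tumor 13 or 15 in clone 18. The call over both clones held without any 1 tumor.

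*Cd3e* (ENSMUSG00000032093, chromosome 9, 44998740 to 45009627) encodes the CD3 epsilon chain, which pairs with both delta and gamma. Its normalized count was 59.2, 7.9, 8.3, 12.3 and 15.9 in control tumors, 4.8, 8.6, 2, 1.1 and 25.6 in clone 4 and 5.1, 7.4, 7.9, 4 and 4.5 in clone 18. Control tumor 1 was 3.72 times the next control tumor, clone 4 tumor 10 was above 4 of the 5 control tumors, and the groups overlapped. The log2 difference of -1.34 (standard error 0.53, 95% interval -2.45 to -0.23) did not pass the test (adjusted p = 0.0790 from limma, exact permutation p = 0.0343), and without tumor 10 it was -1.57 and passed (adjusted p = 0.0226), as it did in clone 4 alone without that tumor (adjusted p = 0.0259). Without control tumor 1 the difference was -0.87 (adjusted p = 0.265), and the control mean was 11.1 ± 3.77 (SD, n = 4) instead of 20.7 ± 21.8 (SD, n = 5). The exons of *Cd3e* overlap an antisense transcript over 135 bases, and the sources used here do not state whether strand was used in counting.

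*Cd247* (ENSMUSG00000005763, chromosome 1, 165788681 to 165877277), the zeta chain gene, did not follow the CD3 genes. Control tumors had 160.2, 60.8, 115, 71.7 and 105.7, clone 4 tumors 120.5, 135.7, 118.4, 108.1 and 115.9, and clone 18 tumors 113.3, 98.4, 95.6, 83.2 and 85.1. All 10 knockout tumors lay within the control range, and the log2 difference was 0.13 with a 95% interval of -0.28 to 0.55 (adjusted p = 0.691 from limma). The interval leaves out a fall of the size seen in *Cd3g* or *Cd3d*. Of the exon length of *Cd247*, 56.4% (3007 bases) overlaps exons of *Pou2f1* on the other strand. *Pou2f1*, a broadly expressed transcription factor gene, averaged 1622 ± 258 over control tumors (SD, n = 5) and 1301 ± 130 over knockout tumors (SD, n = 10, log2 difference -0.31, adjusted p = 0.0186 from limma). Without strand its reads and those of *Cd247* cannot be told apart over the shared bases, so the level of *Cd247* is uncertain.

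*Cd8a* (ENSMUSG00000053977, chromosome 6, 71373427 to 71379173), the alpha chain of CD8, had 163.6, 17.6, 30.6, 44.8 and 82.5 in control tumors. Clone 4 tumors had 1.9, 22.9, 4, 4.6 and 25.6 and clone 18 tumors 11.2, 11.1, 9.2, 5 and 26.9. For 7 of the 10 knockout tumors the value was below each control tumor, and tumors 7, 10 and 15 reached the lower control values. The log2 difference was -2.33 (standard error 0.57, adjusted p = 0.00690 from limma, exact permutation p = 0.00333), with -2.56 in clone 4 (adjusted p = 0.0126) and -2.10 in clone 18 (adjusted p = 0.0276). In clone 18 the call was lost without control tumor 1, control tumor 5, tumor 13 or tumor 14 (adjusted p = 0.0542 to 0.0787), and in clone 4 it was kept without each tumor in turn. *Cd8b1* (ENSMUSG00000053044, chromosome 6, 71322788 to 71337494), the beta chain gene 35932 bases away, had 92.8, 9.7, 11.1, 33.6 and 40.2 in control, 5.8, 33.4, 7, 14.8 and 15.6 in clone 4 and 14.3, 22.1, 5.2, 6 and 11.2 in clone 18. Its groups overlapped widely, since 2 control tumors were as low as most knockout tumors. The log2 difference was -1.17 (standard error 0.50, 95% interval -2.22 to -0.11) and did not pass with limma (adjusted p = 0.108, exact permutation p = 0.0533). It did pass on the recovered reads, with an adjusted p of 0.0450 from edgeR and 0.0272 from DESeq2, and with limma without control tumor 2 (adjusted p = 0.0497), whereas without control tumor 1 the difference was -0.73 (adjusted p = 0.338).

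*Cd4* (ENSMUSG00000023274, chromosome 6, 124864692 to 124888221), the coreceptor of helper T cells, had the largest difference between the clones in size. Control tumors had 489.7, 118, 325.5, 203.9 and 303.5, clone 4 tumors 276.8, 203.5, 149.2, 185.5 and 176, and clone 18 tumors 87.8, 81.2, 77.2, 95.2 and 165.7. All 5 clone 4 tumors lay within the control range, whereas 4 of the 5 clone 18 tumors were below each control tumor and each clone 4 tumor. *Cd4* was lower in clone 18 than in control tumors by 1.40 on the log2 scale (log2 difference -1.40, standard error 0.31, adjusted p = 0.00301 from limma). In clone 4 the difference was -0.42 (95% interval -1.06 to 0.23, adjusted p = 0.412), and it was -0.19 without control tumor 1 (adjusted p = 0.742) and -0.70 without control tumor 2 (adjusted p = 0.0871). The direct comparison of clone 18 with clone 4 gave -0.99 (95% interval -1.64 to -0.34), which missed the threshold with limma (adjusted p = 0.0776) and passed with DESeq2 (adjusted p = 0.0224) and, with limma, without tumor 15 (adjusted p = 0.0423) or without control tumor 2 (adjusted p = 0.0276). Over both clones the difference of -0.91 (standard error 0.33) had an adjusted p = 0.0567 from limma, an exact permutation p = 0.0320 and an adjusted p of 0.0137 with DESeq2. It passed with limma without control tumor 2 (adjusted p = 0.0160), tumor 6 (adjusted p = 0.0280) or tumor 7 (adjusted p = 0.0478), and was -0.68 without control tumor 1 (adjusted p = 0.184).

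*Cd2* (ENSMUSG00000027863, chromosome 3, 101275899 to 101287939) did not pass the test in any comparison. Control tumors had 95.2, 7, 21.3, 59.4 and 31.7, clone 4 tumors 4.8, 41.1, 22.9, 18.2 and 41.2, and clone 18 tumors 10.2, 33.2, 28.8, 10 and 13.4. Control tumor 2 was below 9 of the 10 knockout tumors, and 3 knockout tumors were above the control median. The log2 difference of -0.71 had a 95% interval of -1.85 to 0.43 (adjusted p = 0.394 from limma), wide enough to hold both no change and a fall as large as that of *Cd3e*. It was -0.31 without control tumor 1 (adjusted p = 0.761) and -1.21 without control tumor 2 (adjusted p = 0.114).

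*Lck* (ENSMUSG00000000409, chromosome 4, 129548344 to 129573641) varied least between tumors of the 10 genes. Its normalized count was 608.1, 368.2, 493.3, 458.3 and 539.2 in control tumors, 448.4, 564.7, 396.9, 553 and 544.7 in clone 4 and 465.3, 447.9, 396.6, 410 and 484.8 in clone 18. All 10 knockout tumors lay within the control range and the log2 difference of -0.06 had a 95% interval of -0.31 to 0.19 (adjusted p = 0.782 from limma, exact permutation p = 0.635). Within control tumors *Lck* varied 1.65-fold from lowest to highest, where *Cd3d* varied 16.2-fold and *Cd8a* 9.30-fold. Its order over control tumors nevertheless had the same highest and lowest tumor as the CD3 genes.

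*Zap70* (ENSMUSG00000026117, chromosome 1, 36761798 to 36782818) had the largest difference of the 10 genes. Its normalized count was 131.1, 190.2, 121.5, 249.9 and 86.7 in control tumors, 14.5, 34.4, 10.9, 13.7 and 26.7 in clone 4 and 30.6, 19.7, 0, 18 and 36.9 in clone 18. It was the only one of the 10 genes with all 10 knockout tumors below each control tumor, a separation that 4.87% of all tested genes showed. Without control tumor 2, the lowest control tumor for 9 of the 10 genes, 4 of the 10 separated in this way, and without tumor 12, 2 did. The share over all genes was taken with all 15 tumors only, so it cannot be set beside these counts. Tumor 13 had no read on *Zap70*, and a count of 0 allows up to 3 reads at this depth. The log2 difference was -3.18 (standard error 0.63, adjusted p = 0.00156 from limma), with -2.93 in clone 4 (adjusted p = 0.0105) and -3.43 in clone 18 (adjusted p = 0.00260). The exact permutation p of 0.000333 is the smallest that these splits give. With a pseudocount of 0.1 in place of 1 the clone 4 call was lost (log2 difference -2.99, adjusted p = 0.0905).

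**Figure D2:**
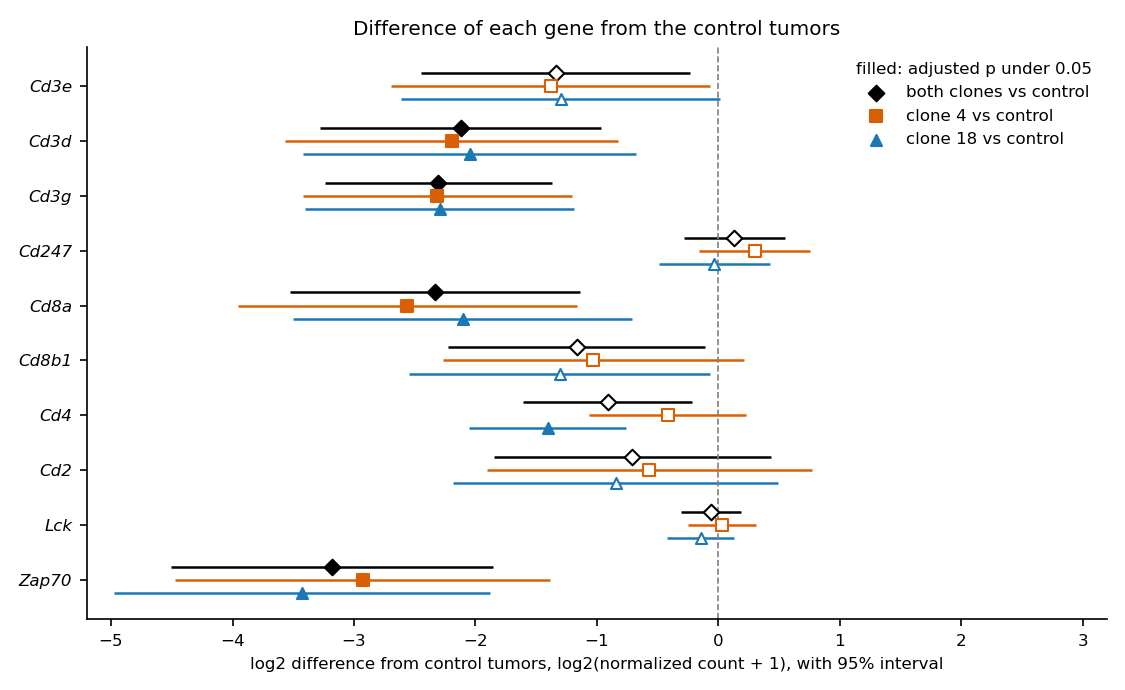
Log2 difference from the 5 control tumors on the log2(normalized count + 1) scale with 95% intervals from limma, for both clones (n = 10), clone 4 (n = 5) and clone 18 (n = 5), where filled points have an adjusted p under 0.05. *Cd3d*, *Cd3g*, *Cd8a* and *Zap70* are filled in all 3 comparisons, *Cd4* in clone 18 only, and the intervals of *Lck* and *Cd247* hold 0.

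Against the same 5 control tumors, 4 of the 10 genes were called in clone 4, namely *Cd3d*, *Cd3g*, *Cd8a* and *Zap70*, all lower, where 10.0% of all tested genes were called lower. In clone 18 these and *Cd4* were called lower, 5 of 10, where 14.2% of all tested genes were called lower. The median log2 difference was -1.20 in clone 4 and -1.36 in clone 18, beside -0.01 and -0.02 over all tested genes. Between the clones 0 of the 10 genes passed with limma, where 4.62% of all genes were called in either direction. An unadjusted p under 0.05 was reached by 1 gene, *Cd4*, and by 3368 of all 18250 tested genes. *Cd4* passed with DESeq2. The intervals of the differences between the clones were wide for low genes, -1.09 to 1.13 for *Cd3g* and -2.04 to 1.05 for *Zap70*, and narrow for *Lck*, -0.45 to 0.10. Leaving out control tumor 1, control tumor 5 or tumor 13 reduced the calls in clone 18 to 3, namely *Cd3g*, *Cd4* and *Zap70*. In these 3 settings 2195 of 18243, 2295 of 18247 and 2326 of 18250 tested genes were called lower.

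The control tumors differed widely in their T cell transcripts. Tumor 1 was highest and tumor 2 lowest for 9 of the 10 genes, and for *Zap70* tumor 4 was highest and tumor 5 lowest. The summed level of *Cd3e*, *Cd3d* and *Cd3g* was 326.1, 31.7, 77.8, 107.5 and 107.9 in control tumors 1 to 5. In clone 4 it was 14.5, 38.2, 11, 15.9 and 53.5, and in clone 18 it was 27.6, 35.7, 18.3, 15 and 25.8. Control tumor 2 thus had a CD3 level between those of the knockout tumors, while its *Zap70* level of 190.2 was the second highest of all 15 tumors. Over the 15 tumors, after each group was centered on its own mean, the log2 level of a gene had a Pearson r with the mean z-score of the other 9 genes of 0.89 for *Cd3g*, 0.88 for *Lck*, 0.87 for *Cd8b1*, 0.86 for *Cd8a*, 0.81 for *Cd3d* and 0.17 for *Zap70*. These values are a description with no test. Without centering, r was 0.88 for *Cd3g* (Spearman rho 0.84) and 0.75 for *Cd3e* (rho 0.69), and leaving out control tumors 1 and 5, the farthest from the median, lowered it to 0.74 and 0.48.

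**Figure D3:**
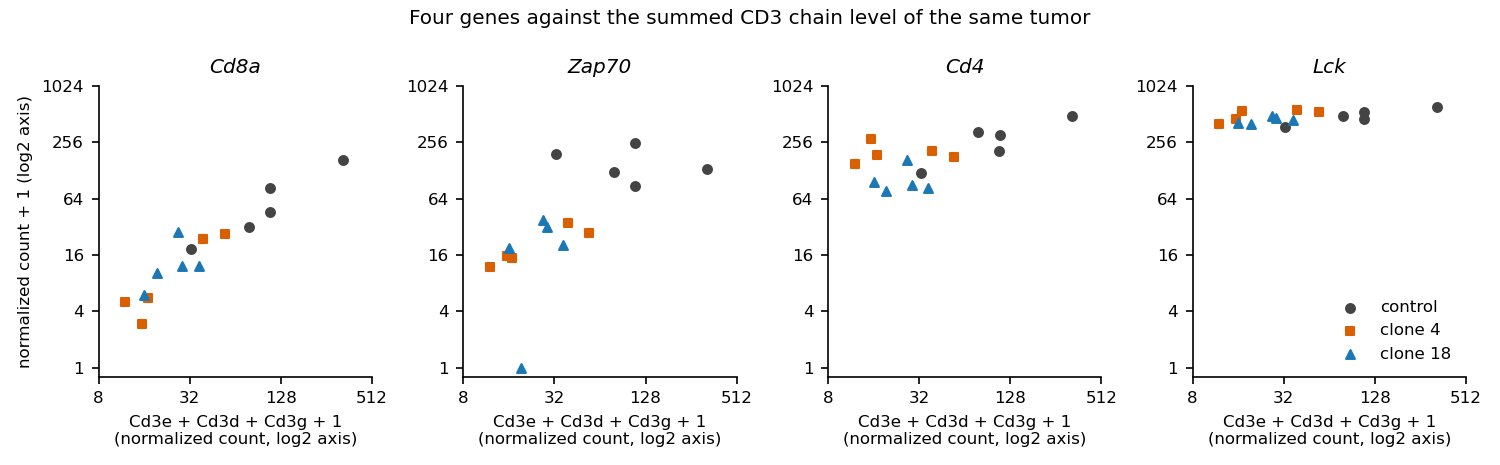
Normalized count + 1 of *Cd8a*, *Zap70*, *Cd4* and *Lck* against the summed normalized count + 1 of *Cd3e*, *Cd3d* and *Cd3g* in the same tumor, both on log2 axes, for 15 tumors. *Cd8a* rises with the CD3 sum across all groups, *Zap70* separates control from knockout tumors also where the CD3 sums overlap (31.7 in control tumor 2, 53.5 in tumor 10), and *Lck* stays between 368.2 and 608.1.

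To see whether the genes moved by unequal amounts within the same tumors, 6 log2 ratios were compared between knockout and control tumors by exact permutation (two-sided, adjusted over the 6 ratios). The ratio of *Cd8a* to *Cd4* was -2.33 in control tumors (SD 0.71, n = 5), -4.48 in clone 4 (SD 1.57, n = 5) and -3.03 in clone 18 (SD 0.56, n = 5). Knockout was 1.42 lower than control on this scale, with 4 of 10 knockout tumors below each control tumor (difference -1.42, exact p = 0.0416, adjusted p = 0.0634). The ratio of *Cd8b1* to *Cd8a* was higher in knockout tumors by 1.17 (exact p = 0.0190, adjusted p = 0.0634), with 7 of 10 above each control tumor. It was below 0 in all 5 control tumors and above 0 in those 7 knockout tumors. The ratio of *Lck* to *Cd3e* was higher by 1.28, with 8 of 10 knockout tumors above each control tumor (exact p = 0.0270, adjusted p = 0.0634). The ratio of *Cd8a* to *Cd3e* differed by -0.99 (exact p = 0.0423, adjusted p = 0.0634), *Zap70* to *Cd3e* by -1.84 (exact p = 0.0546, adjusted p = 0.0655) and *Cd4* to *Cd3e* by 0.43 (exact p = 0.486). None of the 6 passed after adjustment with all tumors. *Cd8b1* to *Cd8a* passed without tumor 10 (adjusted p = 0.0405, exact permutation) or tumor 15 (adjusted p = 0.0225), *Cd8a* to *Cd3e* without tumor 15 (adjusted p = 0.0225) and *Lck* to *Cd3e* without tumor 10 (adjusted p = 0.0120). With a pseudocount of 5, which damps the lowest values, 4 of them passed, namely *Cd8b1* to *Cd8a*, *Cd8a* to *Cd3e*, *Lck* to *Cd3e* and *Zap70* to *Cd3e*. In knockout tumors many values of *Cd3e* (1.1 to 25.6) and *Cd8a* (1.9 to 26.9) were about the size of this pseudocount. It therefore moves the knockout ratios more than the control ratios, and these passes are no separate evidence.

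**Figure D4:**
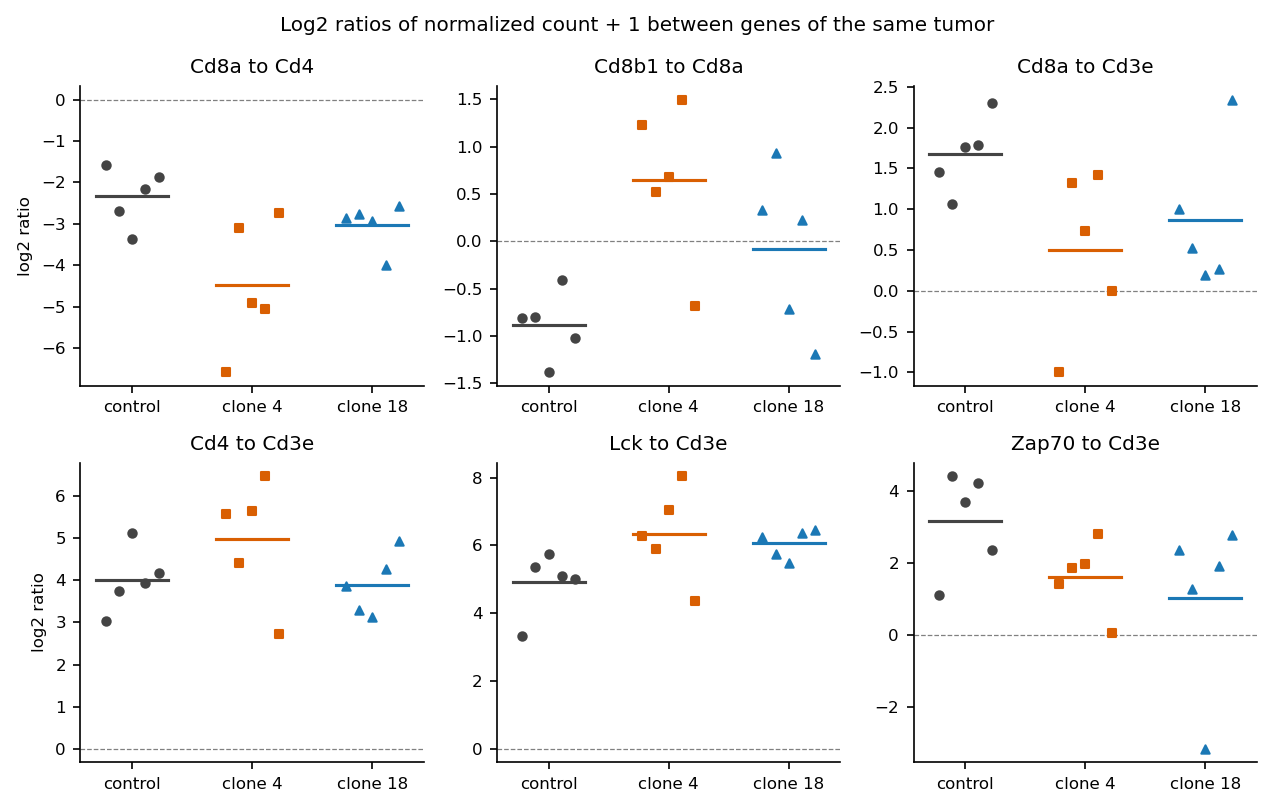
Log2 ratios of normalized count + 1 between 2 genes of the same tumor, with a point per tumor and a bar at the mean of each group of 5. The ratio of *Cd8b1* to *Cd8a* lies between -1.38 and -0.40 in control tumors and is above 0 in 4 of the 5 clone 4 tumors, while *Cd4* to *Cd3e* overlaps between all groups.

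Levels of the 10 genes were compared with each other only per kb of exon length, from GENCODE M21 on GRCm38, the build the reads were aligned to. The length is the union of all annotated exons of a gene, so the order depends in part on the annotation. In control tumors *Lck* had the highest level, 168 ± 30.6 normalized counts per kb (SD, n = 5), followed by *Cd4* at 71.5 ± 34.7 and *Zap70* at 52.1 ± 21.5. *Lck* was above *Cd4* in each of the 15 tumors and their control ranges did not overlap, whereas *Cd4* was above *Zap70* in 3 of 5 control tumors and in all 10 knockout tumors. The next genes were *Cd8b1* at 25.3, *Cd2* at 24.7, *Cd3g* at 22.0, *Cd3d* at 20.7, *Cd247* at 19.3 and *Cd8a* at 18.6, whose ranges overlapped, and *Cd3e* was lowest at 5.08. In knockout tumors *Lck* was at 161 ± 21.9 (SD, n = 10), *Cd247* at 20.2 ± 3.13 and *Zap70* at 6.86 ± 3.87. Of 17656 genes with a length, 51.2% had a lower control level per kb than *Lck*, 26.8% than *Cd3g* and 12.4% than *Cd3e*. *Cd3e* was below *Cd8a*, the next gene in this order, in all 5 control tumors and in 9 of 10 knockout tumors, although their control ranges overlapped.

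**Figure D5:**
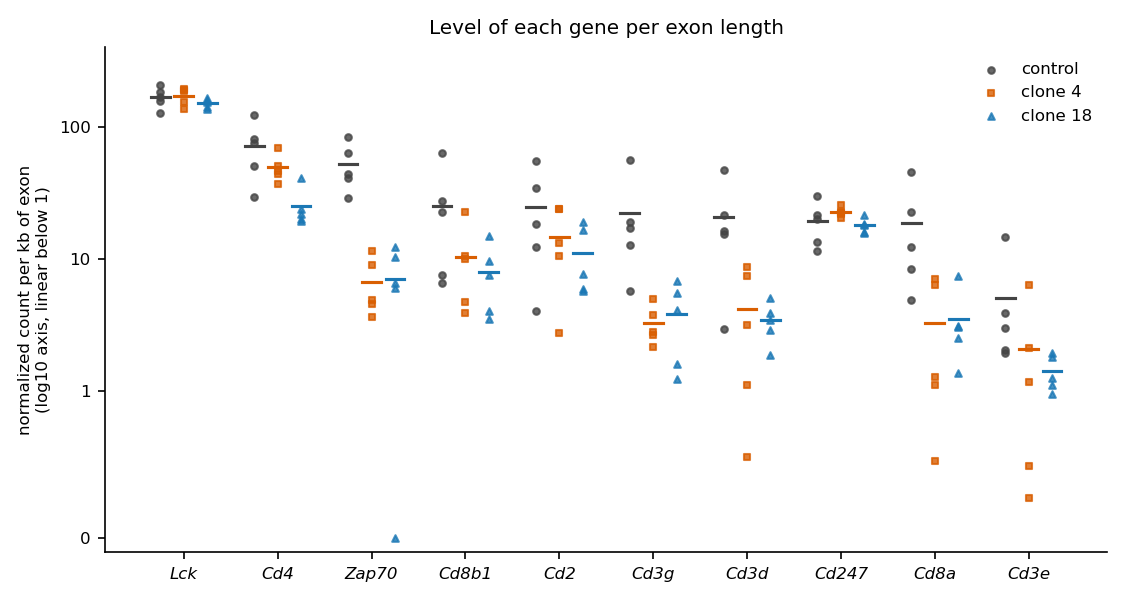
Normalized count per kb of exon (log10 axis, linear below 1) of the 10 genes in order of their control mean, with a point per tumor and a bar at the mean of 5 tumors. *Lck* leads in all groups, and *Zap70* drops from the third place in control tumors, 52.1, to 6.86 in knockout tumors.

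The genes whose log2 level was most like the mean z-score of the 10 genes over the 15 tumors were *Il21r* (Pearson r 0.95), *Gm4759* (0.95), *Skap1* (0.95), *Iigp1* (0.95), *Cxcr3* (0.95), *Klra2* (0.94), *Ltb* (0.94), *Igtp* (0.93), *Irgm1* (0.92) and *Gbp6* (0.92), among 16484 genes with a mean of at least 10. *Il21r* and *Cxcr3* encode a cytokine receptor and a chemokine receptor of lymphocytes, *Skap1* an adaptor of T cell receptor signaling, and *Iigp1*, *Igtp*, *Irgm1* and *Gbp6* are interferon-inducible GTPases. *Cxcr3* was 58.0 in control and 19.1 in knockout tumors (log2 difference -1.41, adjusted p = 0.0102 from limma). *Iigp1* was 2580 and 1018 (log2 difference -1.17, adjusted p = 0.0162). *Ltb*, encoding lymphotoxin beta, was 136 and 90.7 and did not pass (log2 difference -0.49, adjusted p = 0.131). Of the 10 genes, 6 were also among the 10 most alike by Spearman rho. These likenesses carry no test. The genes were chosen over both groups for likeness to a score that itself fell in knockout tumors. Their group differences and adjusted p values therefore follow in part from the choice and are no separate evidence.

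The signaling genes of the receptor pathway had a smaller median fall than the 10 genes (-1.25), whereas the constant segments of the receptor chains did not. Of 25 T cell receptor signaling genes in the table, 6 were called lower and 0 higher, with a median log2 difference of -0.36. *Pag1*, an adaptor that brings the inhibitory kinase CSK to the membrane, differed by -0.55 (adjusted p = 0.00288 from limma), *Vav1*, an exchange factor, by -0.40 (adjusted p = 0.0332), and *Lcp2*, the adaptor SLP-76, by -0.46 (adjusted p = 0.0360). These 3 genes are also expressed in other leukocytes. *Skap1* differed by -1.31 (adjusted p = 0.0487). Of the 4 constant segments of receptor chains in the table, 1 was called, *Trbc2* of the beta chain, at 63.98 ± 43.2 over control tumors (SD, n = 5) and 17.5 ± 9.82 over knockout tumors (SD, n = 10, log2 difference -1.71, adjusted p = 0.00371), and the median of the 4 was -1.35. The number of signaling genes called changed with the settings, from 1 to 7 over other methods. It fell to 1 without control tumor 1, 3 or 5, to 2 without tumor 9, 11 or 13 and to 3 without tumor 6, 14 or 15. For the constant segments it was 3 without control tumor 2 or tumor 7 and 2 without tumor 10.

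Of 15 T cell surface and costimulation genes, 3 were called lower and 1 higher, with a median of -1.02. *Cd27*, a costimulatory receptor, differed by -1.89 (adjusted p = 0.0106 from limma), *Cd6*, a T cell surface receptor, by -2.03 (adjusted p = 0.0290) and *Ctsw*, a cathepsin of cytotoxic lymphocytes, by -1.13 (adjusted p = 0.0339), whereas *Slamf1*, a receptor also carried by myeloid cells, was higher by 0.52 (adjusted p = 0.00851). Of 12 transcription factors of the T lineage, 4 were called lower and 0 higher, with a median of -1.16. *Bcl11b*, needed for T cell commitment, averaged 44.2 ± 10.5 over control tumors (SD, n = 5) and 11.7 ± 8.60 over knockout tumors (SD, n = 10), with all 10 knockout tumors below each control tumor (log2 difference -2.01, adjusted p = 0.000614). *Tox* differed by -2.63 (adjusted p = 0.00917), *Ikzf3* by -2.09 (adjusted p = 0.0308) and *Tcf7* by -0.76 (adjusted p = 0.0401). Without control tumor 1 the calls were 2 among the surface genes and 2 among the transcription factors. Without control tumor 2 there were 7 surface genes called, without control tumor 5 there were 2, and without tumor 10 there were 8 transcription factors called.

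The ligands of the coreceptors and of CD2 did not pass the test. Of 7 such genes 0 were called with limma and 0 had an unadjusted p under 0.05, with a median of -0.14. *H2-D1*, an MHC class I heavy chain, differed by -0.10 (adjusted p = 0.544 from limma) and *B2m*, its light chain, by 0.09 (adjusted p = 0.539), and the other methods called 0 as well, whereas 3 of the 7 were called without control tumor 2. Of 12 genes that T cell receptor signaling induces early, 1 was called, *Xcl1*, a chemokine of activated T cells and NK cells, at 32.4 ± 26.6 over control tumors (SD, n = 5) and 5.31 ± 2.54 over knockout tumors (SD, n = 10, log2 difference -2.19, adjusted p = 0.00134). The median of these 12 was 0.07, 9 of the 10 other methods called more than 1 of them, namely 3 with the mean of both clones in the 3-group fit and 2 with each of the others, and 2 were called without control tumor 4 or tumor 9, 10, 11 or 13, and most of them are also induced in other cells.

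Markers of other cells moved with the groups too. Of 8 pan-leukocyte genes 4 were called lower and 0 higher (median -0.29), among them *Ptpn6* (log2 difference -0.59, adjusted p = 0.00106 from limma), *Laptm5* (-0.41, adjusted p = 0.0121), *Rac2* (-0.46, adjusted p = 0.0419) and *Coro1a* (-0.36, adjusted p = 0.0445). Their summed normalized count was 19031 to 28991 in control, 17389 to 22652 in clone 4 and 16008 to 20877 in clone 18. The number called was 2 without control tumor 1, 3 or 5 or tumor 9, 11, 13, 14 or 15. Of 10 macrophage genes 5 were called lower and 1 higher (median -0.42), with a summed level of 134811 to 208630 in control, 120985 to 155499 in clone 4 and 107500 to 143677 in clone 18. *C1qc* (-0.54, adjusted p = 0.00127), *Csf1r* (-0.60, adjusted p = 0.00331) and *C1qb* (-0.46, adjusted p = 0.00524) were lower and *Cd14* (0.42, adjusted p = 0.00352) higher. These falls were smaller than those of *Cd3d*, *Cd3g*, *Cd8a* and *Zap70* on the same scale.

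Of 5 NK cell genes measured here 0 were called with limma, 1 with DESeq2 and 0 with edgeR, and 1 had an unadjusted p under 0.05 (median -0.85), with a summed level of 61.8 to 403.8 in control, 69.7 to 222.8 in clone 4 and 30.1 to 100.9 in clone 18. *Klrk1* (log2 difference -0.85, adjusted p = 0.164 from limma) and *Klrd1* (-1.23, adjusted p = 0.133) had the highest mean normalized counts of the 5, not divided by exon length. Of 6 B cell genes 2 were called lower, *Cd79a*, at 171 ± 136 over control tumors (SD, n = 5) and 1.80 ± 1.47 over knockout tumors (SD, n = 10, log2 difference -5.60, adjusted p = 9.79e-07), and *Cd79b* (-1.11, adjusted p = 0.0107). The median of the 6 was -0.12, and 4 of the 6 were below 0, so *Cd79a* and *Cd79b* were unlike the rest of the list. The summed B cell level was 923.1 to 1194.3 in control, 855.6 to 1289.2 in clone 4 and 685.4 to 947 in clone 18. Most of this sum came from a gene that did not pass. Of 7 dendritic cell genes 1 was called lower, *Clec9a* of cross-presenting dendritic cells (-1.42, adjusted p = 0.0454), a call kept without control tumor 2, tumor 7 or tumor 10 and lost without any other tumor, with a summed level of 1243.6 to 2685.4 in control, 1775.3 to 3192.7 in clone 4 and 1409.7 to 2573 in clone 18. Control tumor 1 had the highest control level of the summed pan-leukocyte, NK cell, macrophage and dendritic cell genes, and control tumor 2 the lowest.

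Endothelial and skeletal muscle genes had 0 calls of 8 each with limma. An unadjusted p under 0.05 was reached by 1 and 2 of them, and edgeR and DESeq2 each called 1 endothelial and 4 muscle genes. *Esam* differed by 0.23 (adjusted p = 0.0566 from limma) and *Cdh5* by 0.15 (adjusted p = 0.682), with a summed endothelial level of 5584.9 to 10464.8 in control, 6794.7 to 11669.9 in clone 4 and 7088.4 to 8926 in clone 18. *Acta1*, the skeletal muscle actin, averaged 11.9 ± 15.6 over control tumors (SD, n = 5) and 269 ± 306 over knockout tumors (SD, n = 10, adjusted p = 0.299) and *Myh1* was 8.76 ± 18.5 and 153 ± 182 (adjusted p = 0.173). The summed muscle level was 114.2 to 231 in control (median 181.5), 81.6 to 1240.8 in clone 4 (median 97.6) and 113.2 to 2014.5 in clone 18 (median 1624.7). No listed gene of these other cell types was at 0 in most tumors. The part of other cell types in the differences of the 10 genes was not tested.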

How the data were processed

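Bulk RNA sequencing of 15 Renca tumors was used, in 3 groups of 5 (control, *Pbrm1* knockout clone 4 and clone 18). The deposited signal is a count per gene that the authors obtained with HTSeq after alignment to mm10 with tophat2, scaled by a DESeq size factor for each tumor. Tool versions, annotation and strand setting are not given in the sources used here. Divided by the value of 1 read, 100% of a tumor's values up to 8000 came out whole within 0.1 read beyond the rounding error of the deposited values. This gave back whole reads. The count for tumors whose step is close to 1 rests on the rounding of the values themselves. The 10 genes and the lists of related genes were chosen with earlier results of these data known.

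Of 18279 genes, 29 had no read in any tumor and were dropped. Values were compared as log2(normalized count + 1), so fold changes of low genes are understated. The 10 knockout tumors were compared with 5 controls by limma 3.58.1 (trend option), and the 3 groups in a second fit, with Benjamini-Hochberg adjustment over 18250 genes. Exact permutation tests were two-sided over all splits into 5 and 10. The alternatives were other pseudocounts, a mean of at least 10, upper quartile and quantile scaling, limma without trend, the two-sample test with equal variances, the count tests of edgeR 4.0.16 and DESeq2 1.42.0 run on recovered reads, and each tumor left out in turn. Of the fits, limma with trend, edgeR and DESeq2 were tested on simulated data, for knockout against control only. Named genes were the 10 genes, up to 4 called genes per list with the smallest adjusted p (the 2 of highest mean where none passed), the 10 genes most alike to the mean z-score and *Pbrm1*. A gene of the signaling list that this rule names is not reported here. *Pou2f1* was added after its values were seen, for its overlap with *Cd247*. Exon lengths came from GENCODE M21 on GRCm38 and promoters from RefSeq GRCm38.p6. The authors' real-time PCR, protein and patient data were not used here.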

Additional observations from a re-analysis of the deposited data

Results flagged for a closer look

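For each of the 10 genes and the 6 log2 ratios, the highest and the lowest tumor of each group of 5 were compared with the gap that separates a sample from its group. Of 48 groups tested 6 held a tumor that stood apart, where chance gives about 1 in 20, or 2.4. In control tumor 1 *Cd3e* was at 59.2 beside 7.9 to 15.9 in the other control tumors, and *Cd3g* was at 181 beside 18.5 to 62.4. In tumor 15 of clone 18 *Cd8a* was at 26.9 beside 5 to 11.2 in the rest of the clone, and *Cd4* at 165.7 beside 77.2 to 95.2. The log2 ratio of *Cd8a* to *Cd4* was -4.00 in tumor 14 of clone 18 beside -2.94 to -2.58. The log2 ratio of *Zap70* to *Cd3e* was -3.15 in tumor 13, which had no read on *Zap70*, beside 1.30 to 2.78 in the other tumors of clone 18.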

How the results depend on the processing

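In knockout against control tumors, *Cd3d*, *Cd3g*, *Cd8a* and *Zap70* kept their call under the 10 other methods and without each tumor in turn, and 4 to 6 of the 10 genes were called. Lower calls over all genes ranged from 1874 of 18249 (without control tumor 3) to 2676 of 18250 (mean of both clones in the 3-group fit). *Cd4* passed with edgeR (adjusted p = 0.0410), DESeq2 (0.0137) and the mean of both clones in the 3-group fit (0.0182). Small differences changed sign without 1 tumor. In knockout against control, *Cd247* ranged from -0.033 to 0.31 and *Lck* from -0.16 to 0.022 on the log2 scale. *Lck* in clone 4 ranged from -0.071 to 0.11 and *Cd247* in clone 18 from -0.20 to 0.15. Between clone 18 and clone 4 the ranges were -0.31 to 0.61 for *Cd3e*, -0.26 to 0.50 for *Cd3d*, -0.23 to 0.32 for *Cd3g*, -0.53 to 0.053 for *Cd8b1* and -0.87 to 0.44 for *Zap70*. Between the clones the sign of the difference also changed with the method. *Cd3e* was at -0.067 with a pseudocount of 5, -0.060 with quantile normalization, -0.52 with edgeR and -0.54 with DESeq2, in place of 0.09. *Cd3d* was at -0.012, -0.24 and -0.26 with the pseudocount of 5, edgeR and DESeq2, in place of 0.15, *Cd3g* at -0.065 with quantile normalization, in place of 0.02, and *Zap70* at 0.10 with edgeR and 0.088 with DESeq2, in place of -0.50. The cause was not tested.

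Without 1 tumor, 3 to 5 genes were called in clone 18 and 0 to 1 between the clones, where DESeq2 called 1. Over all genes, 2170 to 2648 were called lower in clone 18 without 1 tumor. Between the clones 285 to 409 were called lower and 340 to 518 higher, and with DESeq2 638 and 721. Without 1 tumor, 1 to 4 genes had all knockout tumors below the controls, with no share over all genes for these settings. With a pseudocount of 5, about the size of many knockout values, the log2 ratios that passed were *Cd8b1* to *Cd8a* (0.94), *Cd8a* to *Cd3e* (-0.98), *Lck* to *Cd3e* (0.88) and *Zap70* to *Cd3e* (-1.82). Without 1 tumor they ranged from 1.03 to 1.33, from -1.18 to -0.81 and from 0.89 to 1.49 for the first 3. By Spearman rho, 6 of the 10 most alike genes were named again. No paired analysis was possible because each tumor carries a number of its own. The 3 CD3 chain genes together had 11 to 48 reads in a knockout tumor and 36 to 281 in a control tumor, so both counting error and the spread between control tumors bear on these values.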
